A study of Mus musculus with 8 samples.

Results

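Receptors that steer B cells through lymphoid tissue, 10 in number, were followed in mouse A20 cells: the chemokine receptor genes Cxcr3, Cxcr4, Cxcr5, Ccr6 and Ccr7, the sphingosine-1-phosphate receptor genes S1pr1, S1pr2 and S1pr4, the oxysterol receptor gene Gpr183 (EBI2), and Gpr132, a receptor of the lipid and proton sensing group. They were taken by gene name from the array's own annotation, which gave 10 of 34797 gene names, each with 1 probe of 55681. A20 is a B lymphoma line of mature B cell type. The lines were IgE clone 18, IgE clone 41, a line stably transfected with membrane IgM and untransfected A20, with 2 arrays for each line and 8 in all. Both IgE lines and the IgM line are stable transfectants, and each IgE line is a single clone. The labels name no vector, promoter or selection drug and give no number of clones for the IgM line. All lines grew under the same stated conditions, with 10% serum in the medium and beta-mercaptoethanol at 50 µM. No added ligand and no sort is mentioned in the labels.

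Chemokine receptors of this kind couple mainly to inhibitory G proteins and turn a cell toward the source of their ligand. CXCR5 follows CXCL13 into B cell follicles, CCR7 follows CCL19 and CCL21 toward the T cell zone, CXCR4 follows CXCL12, CCR6 follows CCL20 and CXCR3 follows CXCL9, CXCL10 and CXCL11. S1PR1 draws lymphocytes toward sphingosine-1-phosphate in blood and lymph and so supports egress, whereas S1PR2 acts through the G alpha subunit encoded by Gna13 and holds germinal centre B cells in place. GPR183 senses an oxysterol and guides cells to the outer edge of the follicle.

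The 5 receptor probes that passed the test in the IgE lines are shown by their first 30 of 60 bases, to identify what each value measures. Each gene rested on a single probe, so no second probe of the same gene was at hand to set beside it.
Cxcr5 (mm9 chr9:44320071-44320130, minus strand): gggaaaccaatgctatagcttcagagactg
S1pr1 (mm9 chr3:115414020-115414079, minus strand): aagatgaaaatgtgttccttttttgtcaca
Gpr132 (mm9 chr12:114089088-114089147, minus strand): tttctcctgattctgtctgttgtccccatc
Cxcr3 (mm9 chrX:98926920-98926979, minus strand): gccaggcgttgtcagcactgaatgtgccca
Ccr6 (mm9 chr17:8449933-8449992, plus strand): acacgagagcacaaagcaacattgccccaa

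The RefSeq promoter table (build GRCm38.p6) held 7 of the 10 genes, among them 3 of those that passed, Gpr132, Cxcr3 and Ccr6. Their 250 bases upstream of the start site are printed because they share a short run of letters. Capitals mark AGGAAGT or its complement ACTTCCT, the core bound by ETS family transcription factors such as PU.1, and ATTTGCAT, the octamer bound by Oct factors.
Gpr132 (GRCm38.p6 chr12:112860917-112861166, minus strand): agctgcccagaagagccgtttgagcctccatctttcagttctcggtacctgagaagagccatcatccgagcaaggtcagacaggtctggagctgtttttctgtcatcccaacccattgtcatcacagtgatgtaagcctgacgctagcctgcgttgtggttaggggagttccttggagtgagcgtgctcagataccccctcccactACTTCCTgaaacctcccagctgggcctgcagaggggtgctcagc
Cxcr3 (GRCm38.p6 chrX:101734148-101734397, minus strand): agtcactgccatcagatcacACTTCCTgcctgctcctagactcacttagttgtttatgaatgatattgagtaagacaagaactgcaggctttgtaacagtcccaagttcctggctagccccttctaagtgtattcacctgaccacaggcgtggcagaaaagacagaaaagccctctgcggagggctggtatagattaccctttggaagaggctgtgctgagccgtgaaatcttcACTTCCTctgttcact
Ccr6 (GRCm38.p6 chr17:8235793-8236042, plus strand): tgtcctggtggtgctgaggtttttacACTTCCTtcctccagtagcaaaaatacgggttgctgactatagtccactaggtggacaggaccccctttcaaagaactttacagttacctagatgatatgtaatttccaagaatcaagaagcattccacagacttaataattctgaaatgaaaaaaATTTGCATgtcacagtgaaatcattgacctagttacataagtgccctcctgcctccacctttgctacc

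The ETS letters began 44 bases before the start site of Gpr132, at 230 and 16 bases before that of Cxcr3, and at 224 bases before 1 of the 2 start sites listed for Ccr6. The octamer lay 68 bases before the same Ccr6 start site. Both strands were searched. The ETS letters occurred in 7.69% of 32851 promoter windows of the same length and the octamer in 1.6%. The other 4 receptor genes in the table, Cxcr4 and S1pr2 (tested, not called) and S1pr4 and Gpr183 (not tested), did not hold the ETS letters in their windows. Of the genes with these letters, Gpr132 was called lower and Cxcr3 and Ccr6 higher, and no link between the letters and the calls is read from this. S1pr2 held the cyclic AMP response element TGACGTCA at 181 bases before its start, a run found in 1.55% of windows. The NF-kB consensus and GTAAACA, a FOXO site, occurred in none of these 7 genes and in 0.14% and 3.17% of all windows. These letters were chosen after the sequences had been seen, and a match is a description of the window, not a binding site.

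Signals are given as the log2 intensity of a probe relative to the 75th percentile of its array, so that 0 is that percentile and a negative value lies below it. Levels of different probes are not comparable with each other. Testing needed a signal well above background on the 2 arrays of 1 line or more. That left 29140 probes, and 8 of the 10 receptors. A probe was called at a Benjamini-Hochberg adjusted p under 0.05 with a change of at least 2-fold in a limma fit over all 29140 probes. Whether the 2 arrays of a line hold separate cultures is not stated in the labels. The p-values therefore cover the spread among these 8 samples alone, and it may be technical. The SD of the log2 difference between the 2 arrays of a line was 0.326 in clone 18, 0.375 in clone 41, 0.372 in IgM cells and 0.652 in untransfected cells, over 24838 probes above background on all arrays, so the untransfected pair was the widest. Between 49.7% and 58.9% of spots on an array were well above background. The mu heavy chain probe read 3.65 and 3.8 in clone 18, 3.93 and 3.94 in clone 41, 4.88 and 4.64 in IgM cells, and 3.97 and 4.29 in untransfected cells, so it was highest in the IgM line. No probe description named the epsilon constant gene. In cells measured in bulk, fewer cells that express a gene and less RNA in each cell cannot be told apart.

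Between the 4 IgE arrays and the 4 control arrays (IgM and untransfected), Cxcr5, S1pr1 and Gpr132 fell and Cxcr3 and Ccr6 rose. Cxcr4, Ccr7 and S1pr2 did not pass, and S1pr4 and Gpr183 were too dim to test. The 5 calls among 8 receptors tested stand beside 8.99% of all probes called in that comparison, 3.6% higher and 5.39% lower. The receptors were chosen with earlier results of these data known, so no conclusion is drawn from the difference in share. Cxcr3 and Ccr6 entered the test only through the IgE lines, where they were above background, so they had to differ in that direction. Among the 6 receptors above background on all 8 arrays, 3 were called lower (Cxcr5, S1pr1 and Gpr132) and 0 higher, and the change of Gpr132 rests on the untransfected arrays. The share called among all probes of that kind is not given here, so no conclusion is drawn from this count. The median change over the 8 receptors was 0.04 on the log2 scale, against 0.05 over all probes tested.

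**Figure D1:**
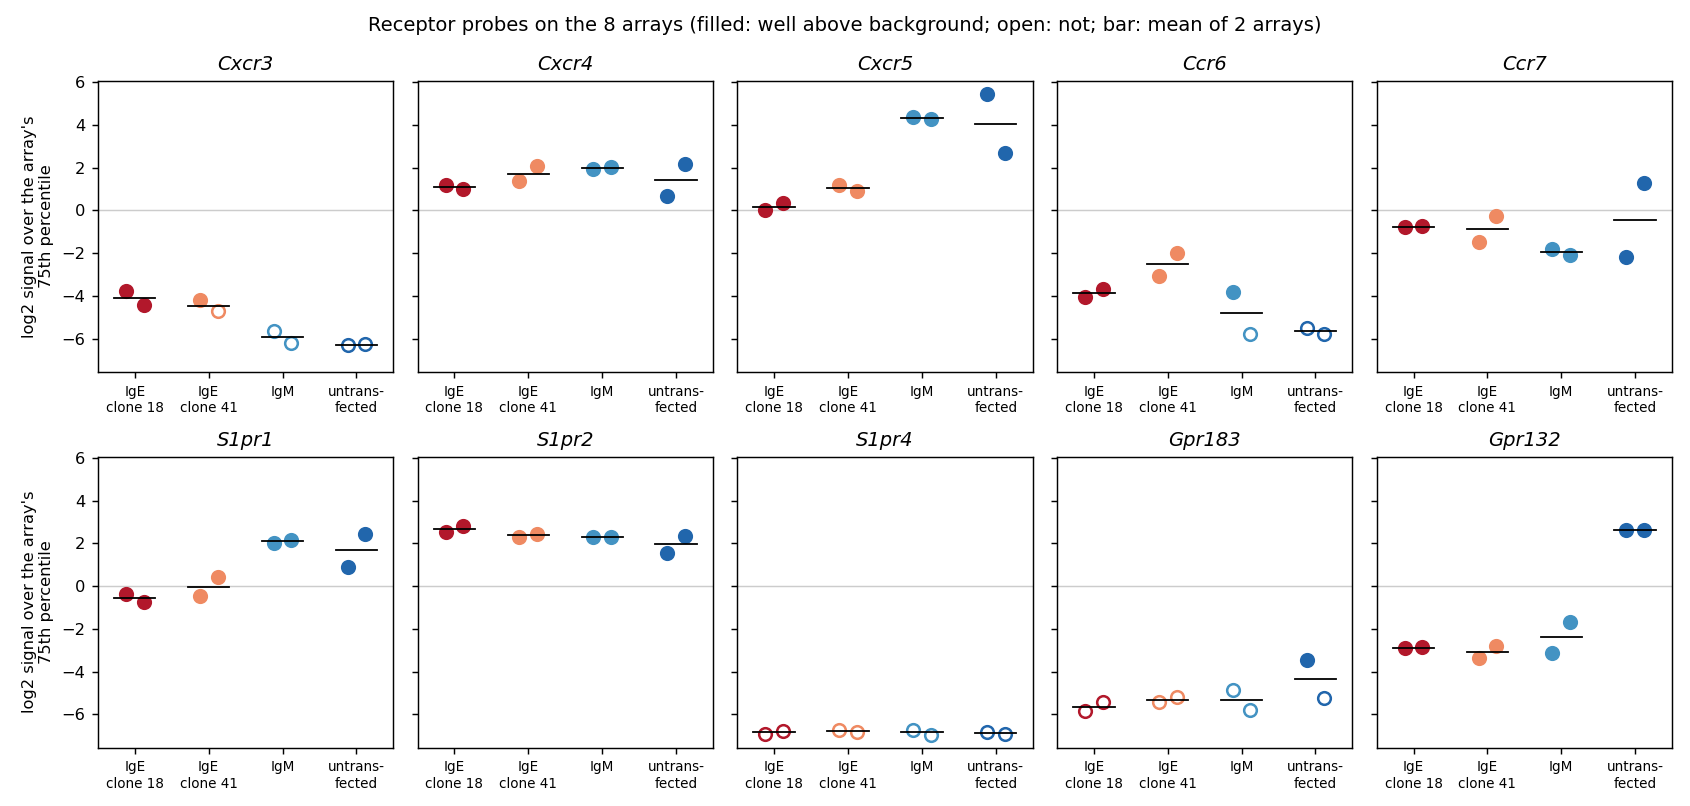
Log2 signal of the 10 receptor probes relative to the 75th percentile of each array, with 1 point per array, filled where the probe was well above background, and a bar at the mean of the 2 arrays of a line. Cxcr5 and S1pr1 lie lower in both IgE clones, Gpr132 is high only in the untransfected arrays (2.65 and 2.61), and S1pr4 is open on every array.

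Cxcr5, the receptor for CXCL13 and the entry signal to the follicle, read 0.01 and 0.33 in clone 18 and 1.2 and 0.93 in clone 41, against 4.38 and 4.30 in IgM cells and 5.44 and 2.70 in untransfected cells. All 4 IgE arrays lay below all 4 control arrays, and the untransfected arrays lay on either side of the IgM ones. The change was -3.58 ± 0.54 (log2, SE), a 12-fold lower signal in the IgE lines (adjusted p = 0.00643). Without the brighter untransfected array the change was -2.90, and without the dimmer one -4.27, and it was called in both cases. From low to high, the lines stood in the order clone 18, clone 41, untransfected and IgM. Clone 41 against clone 18 differed by 0.89 (95% interval -0.94 to 2.73, adjusted p = 1.0), and IgM against untransfected cells by 0.27 (-1.56 to 2.11), so the 2 clones and the 2 control lines did not differ beyond their spread. Clone 41 against untransfected cells, the middle of the order, is given below.

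S1pr1, the receptor that supports exit into blood and lymph, read -0.36 and -0.76 in clone 18 and -0.46 and 0.41 in clone 41, against 2.03 and 2.15 in IgM cells and 0.90 and 2.45 in untransfected cells. No IgE array reached the lowest control array. The change was -2.18 ± 0.37 (SE), a 4.52-fold lower signal (adjusted p = 0.00955). Leaving out any 1 array kept the call, with changes of -2.56 to -1.79. The order of the lines was the one seen for Cxcr5. Here too the 2 clones (0.54, 95% interval -0.70 to 1.78) and the 2 control lines (0.41, -0.82 to 1.65) did not differ beyond their spread.

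Gpr132 differed from the receptors above in that the control lines were far apart. It read -2.91 and -2.86 in clone 18 and -3.35 and -2.79 in clone 41, against -3.12 and -1.68 in IgM cells and 2.65 and 2.61 in untransfected cells. The IgM arrays overlapped the IgE arrays, and the 2 untransfected arrays lay apart from the other 6. IgM cells against untransfected cells gave -5.03 ± 0.45 (SE), 32.7-fold lower in IgM cells (adjusted p = 0.00328). It was the 1 receptor of 8 called in that contrast, in which 1.82% of probes were called, 1.14% higher and 0.686% lower. Clone 18 lay 45.8-fold and clone 41 51.9-fold below untransfected cells (adjusted p = 0.000822 and 0.000861). Against IgM cells the changes were -0.49 for clone 18 (95% interval -1.55 to 0.58, adjusted p = 0.545) and -0.67 for clone 41 (-1.73 to 0.40, adjusted p = 0.431). The change of -3.09 ± 0.32 between IgE and control lines (8.53-fold lower, adjusted p = 0.00128) therefore rests on the untransfected arrays. It was lost when the 4 control arrays were treated as replicates of 1 group (adjusted p = 0.136).

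Cxcr3, the receptor for interferon-induced chemokines, was dim everywhere. It read -3.79 and -4.42 in clone 18 and -4.21 and -4.70 in clone 41, against -5.64 and -6.22 in IgM cells and -6.32 and -6.26 in untransfected cells. The 3 brightest IgE readings were well above background, and the second clone 41 array and all 4 control arrays were not. The groups did not overlap. The fitted change was 1.83 ± 0.22 (SE, adjusted p = 0.00243), and since the control signal has only an upper limit, no exact fold is given. Where a fold is printed as "at least", the dim arrays stand at no less than their lowest signal well above background (log2 -4.90 to -4.63). With a normexp background correction the change was 0.54 (adjusted p = 0.0216), under 2-fold, and it was 0.56 (adjusted p = 0.0625) in the table of log2 values that the authors deposited.

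Ccr6, the receptor for CCL20, read -4.05 and -3.70 in clone 18 and -3.06 and -1.99 in clone 41, against -3.82 and -5.78 in IgM cells and -5.49 and -5.78 in untransfected cells. All IgE arrays were well above background, as was the first IgM array, which lay among the clone 18 values. The other 3 control arrays were not. The fitted change was 2.02 ± 0.45 (SE, adjusted p = 0.0269), set largely against control readings that are only upper limits. It was called in 4 of the 8 fits that left out 1 array. It was lost without either clone 18 array (adjusted p = 0.0833 and 0.0961), without the second clone 41 array (adjusted p = 0.0822) and without the second untransfected array (adjusted p = 0.0549). With a normexp correction it was 0.78, under 2-fold, and with the authors' deposited values 0.86 (adjusted p = 0.0601). With no filter on dim probes the adjusted p was 0.091. Clone 41 minus clone 18 was 1.35 (95% interval -0.17 to 2.87, adjusted p = 0.971).

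The IgE and control arrays did not overlap for 3 of the 8 receptors tested (Cxcr5, S1pr1 and Cxcr3), beside 24% of all probes.

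Ccr7, which leads B cells toward the T cell zone, read -0.79 and -0.73 in clone 18 and -1.49 and -0.27 in clone 41, against -1.81 and -2.08 in IgM cells and -2.16 and 1.29 in untransfected cells. The second untransfected array stood above all others, and the first was the lowest of the 8. The change of 0.37 ± 0.72 (SE, 95% interval -1.33 to 2.08, adjusted p = 0.758) turned to -0.49 without the first untransfected array. Without the second, it was 1.24 and passed (adjusted p = 0.0436). The data thus gave no direction for Ccr7.

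Cxcr4, the receptor for CXCL12, lay above the 75th percentile on every array. It read 1.21 and 1.02 in clone 18 and 1.36 and 2.06 in clone 41, against 1.94 and 2.02 in IgM cells and 0.69 and 2.19 in untransfected cells. The groups overlapped and the change was -0.30 ± 0.34 (SE, 95% interval -1.10 to 0.51, adjusted p = 0.583). S1pr2, the receptor that confines germinal centre B cells, also lay above the 75th percentile throughout, at 2.52 and 2.80 in clone 18 and 2.31 and 2.46 in clone 41, against 2.29 and 2.29 in IgM cells and 1.55 and 2.37 in untransfected cells. Its change was 0.40 ± 0.20 (SE, 95% interval -0.08 to 0.88, adjusted p = 0.215).

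Gpr183 was well above background on 1 array of 8, the first untransfected one, at -3.47. It read -5.85 and -5.44 in clone 18, -5.45 and -5.21 in clone 41, -4.86 and -5.79 in IgM cells, and -5.23 on the second untransfected array, all of them not well above background. S1pr4 was not well above background on any array, at -6.95 to -6.74, so these arrays give no difference for either gene.

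**Figure D2:**
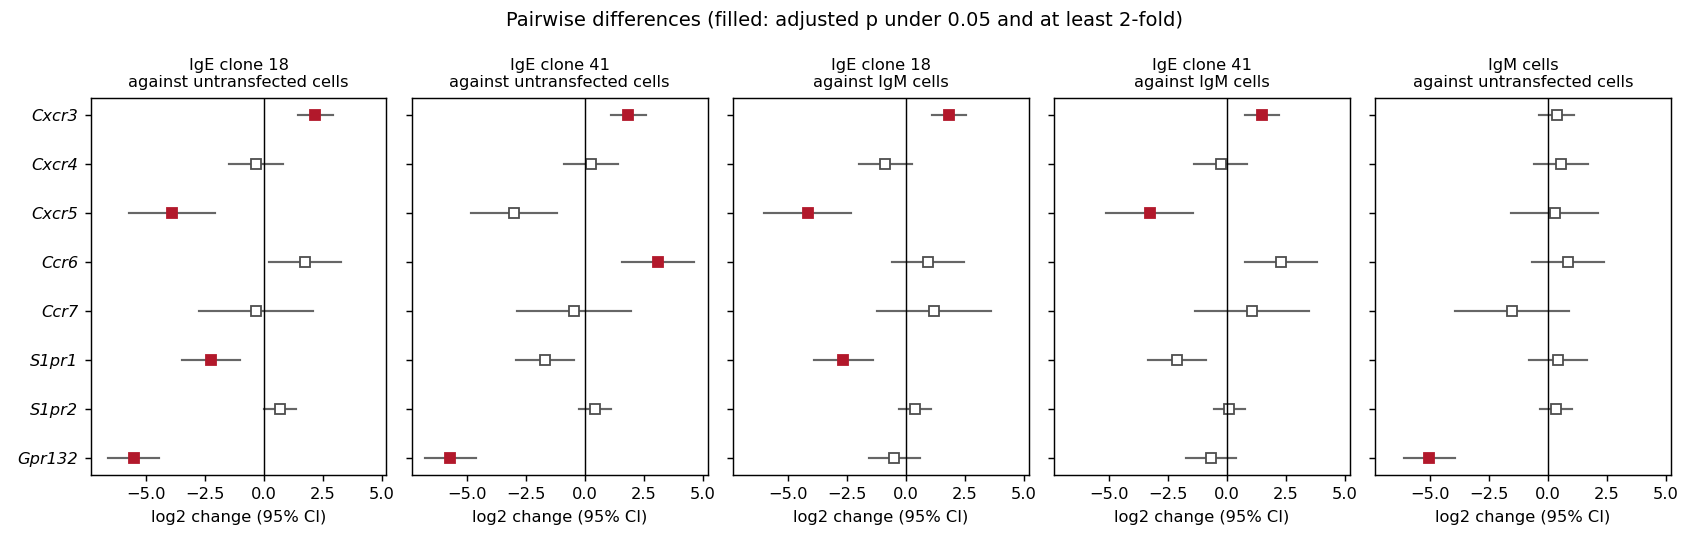
Log2 change (points) with 95% interval (lines) of the 8 tested receptors in 5 pairwise contrasts, filled where the adjusted p was under 0.05 and the change at least 2-fold. Cxcr3 is filled in all 4 contrasts of an IgE clone with a control line, and Gpr132 only where untransfected cells are the comparison.

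The 4 pairings of a clone with a control line were read one by one. These contrasts share lines, so their counts are not independent of one another. Clone 18 against untransfected cells called 4 receptors, 1 higher and 3 lower (7.46% of all probes, 3.5% higher and 3.96% lower). Clone 41 against untransfected cells called 3, 2 higher and 1 lower (5.51%, 2.45% higher and 3.06% lower). Clone 18 against IgM cells called 3, 1 higher and 2 lower (8.84%, 3.33% higher and 5.51% lower), and clone 41 against IgM cells 2, 1 higher and 1 lower (7.23%, 2.57% higher and 4.66% lower). Clone 41 against clone 18 called 0 of 8 by limma, with 0 at an unadjusted p under 0.05, beside 0.261% of all probes, 0.12% higher and 0.141% lower.

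Cxcr5 was called in 3 of these pairings. Clone 18 lay -3.89 from untransfected cells (adjusted p = 0.0275) and -4.17 from IgM cells (adjusted p = 0.0191), and clone 41 lay -3.28 from IgM cells (adjusted p = 0.049). Clone 41 against untransfected cells gave -3.0 (adjusted p = 0.0754), with the wide untransfected pair in the contrast. Without 1 array, the first of these changes ran from -5.26 to -2.53 and was called in 4 of 8 fits, the change against IgM cells was called in 4 of 8 for clone 18, and in 2 of 8 for clone 41. S1pr1 was called for clone 18 against untransfected cells (-2.24, adjusted p = 0.0464) and against IgM cells (-2.65, adjusted p = 0.0229). The call against untransfected cells was kept in 1 of 8 fits without 1 array (-3.01 to -1.46), and the call against IgM cells in 4 of 8. For clone 41 the changes of S1pr1 were -1.70 (adjusted p = 0.119) and -2.11 (adjusted p = 0.0562). Between all IgE and all control arrays, both genes were called in 8 of 8 such fits.

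Cxcr3 had entered the test through clone 18 alone and Ccr6 through both IgE clones. That filter favoured a higher signal in the IgE lines, so no support is drawn from the direction of their pairings. Cxcr3 was called in all 4. In clone 18, which was above background on both arrays, it was at least 1.66-fold higher than in untransfected cells and at least 1.64-fold higher than in IgM cells. In clone 41, above background on 1 array of 2, the fitted changes were 1.84 and 1.48. With its dimmer array taken as read, clone 41 was at least 1.30-fold and 1.29-fold higher. The 4 bounds lay under the 2-fold threshold, and the calls used the fitted changes. With normexp these 4 changes were 0.67, 0.57, 0.52 and 0.42, and with the authors' deposited values 0.56, 0.62, 0.50 and 0.56, and none was called. Ccr6 was called once, in clone 41 against untransfected cells (fitted change 3.11, adjusted p = 0.0384). Neither untransfected array was well above background, and the bound was at least 4.93-fold higher in clone 41. For clone 18 it was at least 1.94-fold, not called (adjusted p = 0.146). The clone 41 change was 1.17 with normexp, still called, and 1.37 with the authors' deposited values (adjusted p = 0.0811). It was called in 2 of 8 fits without 1 array and lost with the replicate block (adjusted p = 0.0598).

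**Figure D3:**
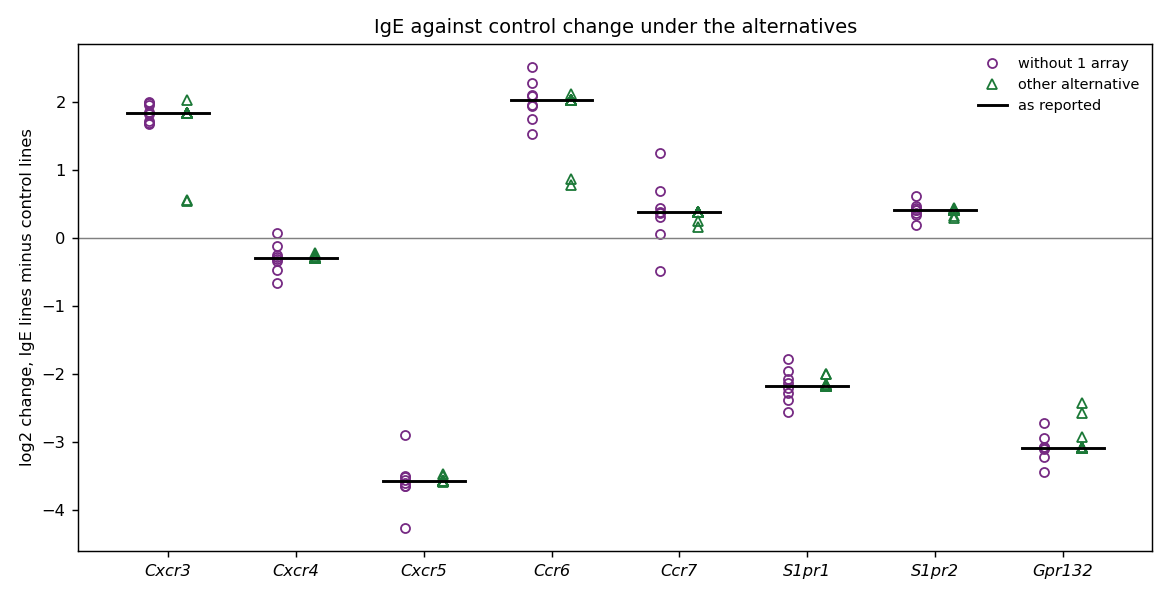
Log2 change of each tested receptor between IgE and control lines as reported (line), without 1 array (circles) and under the other processing alternatives (triangles). Cxcr5, S1pr1 and Gpr132 stay below 0 and Cxcr3 and Ccr6 above 0 throughout, whereas Ccr7 and Cxcr4 cross 0 when 1 untransfected array is left out.

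The genes around the receptors were read from 5 lists, to be set beside 8.99% of all probes called between IgE and control lines, 3.6% higher and 5.39% lower. The lists too were chosen with earlier results of these data known, so their counts are a description. Of the ligands and the enzymes that make or break them, 11 of 24 were tested and 1 passed. Cxcl10, a ligand of CXCR3, fell to -2.17 and -1.85 in clone 18 and -1.28 and -1.13 in clone 41, against 0.11 and -0.84 in IgM cells and 0.84 and 0.53 in untransfected cells (-1.77 ± 0.23, SE, 3.41-fold, adjusted p = 0.00344), and both of its probes were called. The probe of its receptor gene Cxcr3 was the one called higher above. Cxcl11, another ligand of CXCR3, was not called. Its brighter probe read 0.28 (adjusted p = 0.197) and was saturated on all 8 arrays, and its other probe read 0.51 (adjusted p = 0.0316), under 2-fold. Cxcl12 and Cxcl13, the ligands of CXCR4 and CXCR5, were not well above background on any array. The list's median change was -0.11.

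Receptor coupling, the G proteins, kinases, arrestins and RGS proteins that pass on or end the signal, had 24 of 27 genes tested, with 1 higher, 3 lower and a median of -0.07. On the brightest probe of each gene, the changes were in the RGS proteins, which speed the switching off of G alpha subunits, and in an arrestin, which uncouples receptors. Rgs3 was not called on its brightest probe (0.10, adjusted p = 0.683), while another of its 3 probes was called lower (-1.21, adjusted p = 0.00467). Rgs13 read 2.98 and 3.19 in clone 18 and 4.11 and 3.94 in clone 41, against -3.21 and -4.22 in IgM cells and -0.29 and -3.02 in untransfected cells (6.24 ± 0.57, SE, adjusted p = 0.000823). Rgs16 went the other way, at -6.58 and -6.91 in clone 18 and -5.26 and -3.11 in clone 41, against 1.99 and 3.60 in IgM cells and -1.33 and -0.33 in untransfected cells (adjusted p = 0.000661). It was above background on 1 of the 4 IgE arrays and on both arrays of each control line. Rgs16 thus entered the test only through the lines where it was high, which set its direction. Clone 18 lay at least 186-fold below IgM cells and at least 15.1-fold below untransfected cells, whereas clone 41 against untransfected cells did not pass (-3.36, adjusted p = 0.0609). Rgs2 (-1.84 ± 0.26, adjusted p = 0.00505) and Arrb1 (-1.33 ± 0.15, adjusted p = 0.00191) also fell. Rgs1 was not well above background on any array.

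Most genes further along the pathway were not called. Gnai2, the inhibitory G alpha through which the chemokine receptors act, changed by 0.01 (adjusted p = 0.983), and Arhgef1, the effector below S1PR2 and Gna13, by -0.15 (adjusted p = 0.426). Gna13 itself read -0.96 (adjusted p = 0.00372), short of 2-fold on its brightest probe, while 2 of its 4 probes were called lower, at -2.42 and -1.27. Of 22 genes for motility signalling, such as Dock2, Rac2 and Vav1, 20 were tested and limma called 0, with 4 at an unadjusted p under 0.05 and a median of -0.03. Of these, Rassf5 (-0.89, adjusted p = 0.00414), Ptk2b (-0.83, adjusted p = 0.0211) and Rapgef1 (-0.46, adjusted p = 0.0455) passed the adjusted p but were short of 2-fold, and 1 gene was called lower with normexp.

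Among 16 regulators of receptor expression or display, 15 were tested, with 1 higher, 4 lower and a median of 0.08. CD69 binds S1PR1 and takes it off the cell surface, and Cd69 fell with S1pr1. It read -3.97 and -3.22 in clone 18 and -1.81 and -2.0 in clone 41, against 0.34 and -0.78 in IgM cells and 0.93 and 0.91 in untransfected cells (-3.10 ± 0.28, SE, 8.60-fold, adjusted p = 0.000789). The B cell transcription factors Irf4 (-2.80 ± 0.30, adjusted p = 0.00162) and Ebf1 (-2.26 ± 0.30, adjusted p = 0.00373) fell as well. Foxo1 fell by 1.14 on the log2 scale (adjusted p = 0.0133) and was called in 1 of the 4 pairings. It was lost without the second untransfected array (-0.94, under 2-fold) and without the first array of clone 18 or of clone 41 (adjusted p = 0.0608 and 0.0541). Klf2, an activator of S1pr1 in lymphocytes, read 1.03 ± 0.21 (adjusted p = 0.0201), opposite in sign to S1pr1. It was called in none of the 4 pairings and in 8 of 16 alternatives.

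Of 35 other chemoattractant receptors, 12 were tested and 5 were called, 3 higher and 2 lower, with a median of -0.02. Gpr65, a proton sensor of the same family as Gpr132, read 0.97 and 1.21 in clone 18 and 0.75 and 1.06 in clone 41, against -1.97 and -2.89 in IgM cells and -2.02 and -0.49 in untransfected cells (2.84 ± 0.37, SE, 7.17-fold, adjusted p = 0.00344). Unlike Gpr132, it lay higher on all 4 IgE arrays than on any control array of either line, and it was called in 3 of the 4 pairings. The lysophosphatidic acid receptor genes Lpar5 (at least 3.95-fold, adjusted p = 0.000153) and Lpar6 (2.95-fold, adjusted p = 0.00349) also rose. Lpar5 was well above background on the IgE arrays alone, so it entered the test only through the group where it was high. Gpr174, a receptor for lysophosphatidylserine, read 0.07 and 0.15 in clone 18 and 0.62 and 0.79 in clone 41, against 2.49 and 2.94 in IgM cells and 2.69 and 2.21 in untransfected cells (-2.17 ± 0.17, SE, 4.51-fold lower, adjusted p = 0.000416). Gpr18 followed the pattern of Gpr132, with the IgE and IgM arrays at -5.15 to -3.78, against -0.70 and -0.47 in untransfected cells. Its change of -2.27 (adjusted p = 0.00302) was lost in the random-block fit by line (adjusted p = 0.16) and fell under 2-fold with normexp (-0.95).

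**Figure D4:**
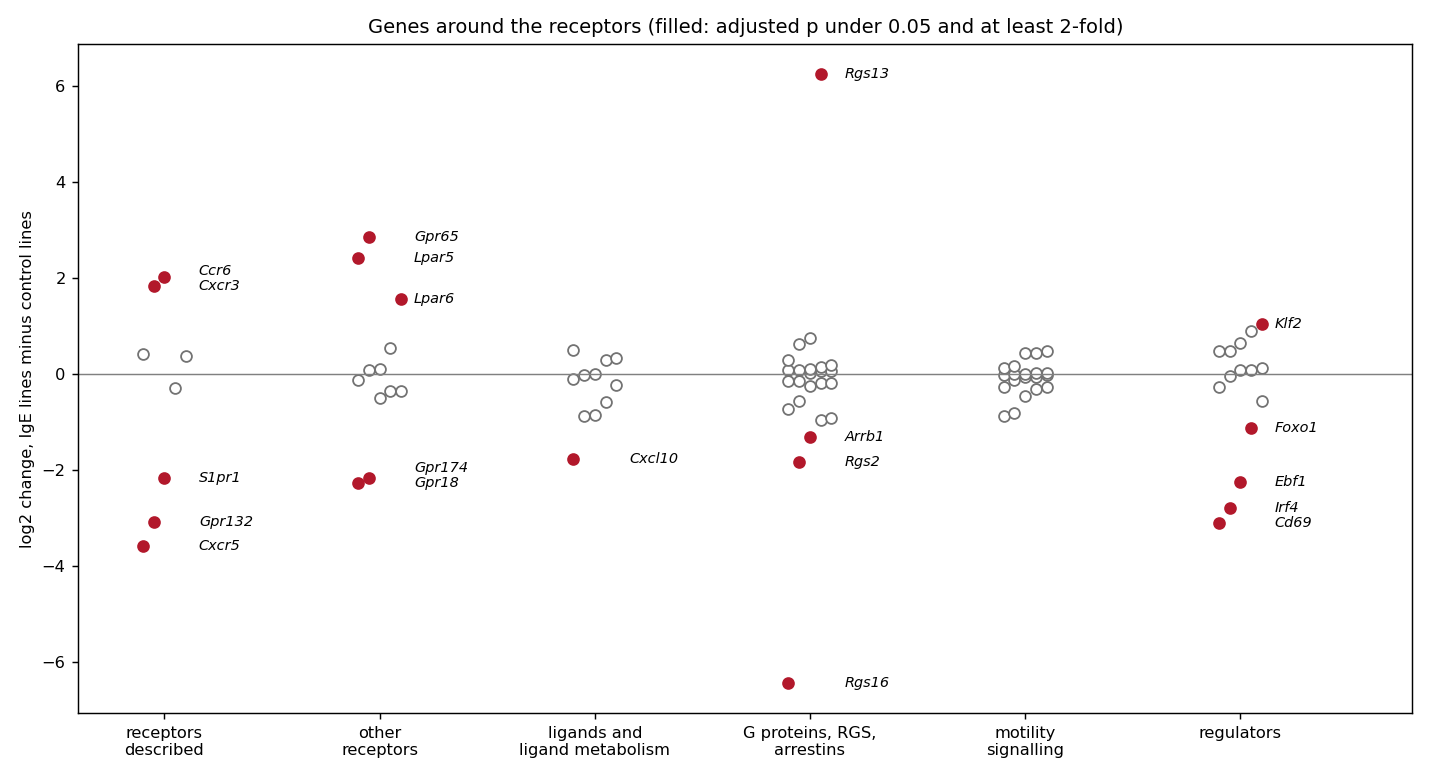
Log2 change between IgE and control lines for every tested gene of the receptors described and of the 5 surrounding lists, with filled points for those called and named. Rgs13 (6.24) is the highest point, Rgs16 (-6.45) rests on 3 of 4 IgE arrays not well above background, and no gene of the motility list is filled.

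The genes whose signal tracked each called receptor most closely were taken from 1 probe per gene among those above background on all 8 arrays, by Pearson's r over the 8 arrays of 4 lines, and are given as a description. For Cxcr5 they were Cog7 (0.989), Gimap5 (0.988) and Nos1 (0.987), and for S1pr1 Cst3 (0.989), Siae (0.987) and Syngr4 (0.987). Gpr132 was nearest to Phc3 (0.970), Crtc3 (0.968) and Tnpo1 (0.964), Cxcr3 to Ubox5 (0.988), Krtap5-2 (0.985) and Ddx26b (0.985), and Ccr6 to genes that include Ly96 (0.940) and Zfyve16 (0.934). Between 10822 and 10823 genes were compared for each receptor over only 4 lines, and nothing is read from these values.

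Markers of the labelled cell type and of others were read beside these results. All 10 B cell markers were well above background on every array. Summed signals, in multiples of the array's 75th percentile, ran from 485 to 519 for the B cell list in IgE arrays, against 426 to 516 in control arrays. The T cell list ran from 17.0 to 20.5, against 11.1 to 16.6, with 6 to 7 of 11 markers above background, against 7 to 10. That sum is mostly the signal of its brightest probes, Cd8b1 (change 0.58) and Cd4 (0.31), neither of them called. Of its 9 tested markers limma called 0 higher and 2 lower, and the median change was -0.43. Cd8a was above background on 0 arrays and Cd3g on the 2 IgM arrays, while Cd3e, Cd4, Cd8b1, Cd5, Cd28 and Lat were above background on all 8. The myeloid list ran from 52.6 to 73.8, against 46.2 to 59.5, with Cd14, Lyz2, S100a8 and S100a9 above background on 0 arrays. The plasma cell list ran from 166 to 199, against 148 to 183, with Tnfrsf17 on 0 arrays, and the stromal and erythroid list from 5.8 to 19.1, against 1.38 to 11.8, with Col1a1 on 0. Of the other markers, Cd68 (3.20-fold), Fcgr3 (2.25-fold), Epor (5.18-fold) and Hbb-b1 (3.67-fold) were called higher in the IgE lines. Cd3g (at least 2.65-fold), Cd5 (3.29-fold) and Adgre1 (21.2-fold) were called lower. Cd3g and Hbb-b1 were lost in the random-block fit by line (adjusted p = 0.0737 and 0.295), and both calls rest on the IgM line. Hbb-b1 read -1.16 and -0.91 in IgM cells and 3.44 and 2.15 in untransfected cells. The latter lay below clone 18 (3.88 and 3.80) and above clone 41 (1.87 and 1.47). Cd3g entered the test only through the IgM arrays, and its bound does not hold against untransfected cells. Of 5 plasma cell markers tested limma called 0, with 3 at an unadjusted p under 0.05. The part of these markers in the receptor results was not tested.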

How the data were processed

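RNA from 4 A20 lines was measured on 8 one-colour Agilent arrays of design 028005. Per the file headers, Feature Extraction 10.7.3.1 read the slide and placed probes on mm9, and the deposited processed intensity of a spot was background-subtracted by that software. All arrays shared 1 slide and 1 scan time. The authors also deposited a log2 table of the series, whose normalization is not given in the sources used here. The medians of its columns were 5.9 to 5.92, and it ranked probes as the median pixel intensity did (Spearman 1), and it served as an alternative.

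Control spots and outlier spots were left out, spots of a probe were averaged, and the 75th percentile of each array (474 to 664 intensity units) was subtracted from the log2 intensity. Each line had a mean of its own in the model, fitted with limma 3.58.1 in R 4.3.3 to the 29140 of 55681 probes well above background on both arrays of a line, with 4 residual and 2.74 prior degrees of freedom and two-sided tests. The fit was tested on simulated data. A probe not well above background on every array of 1 side has only a bound there, printed as "at least". The number of arrays limits the precision.

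Samples were grouped by title and transfection label. The receptors and lists were chosen with earlier results of these data known. Genes were named by rule: every receptor, up to 4 called genes per list with the largest change, Cxcl13, Cxcl12, Rgs1, Rgs13, Rgs16, Gna13, Arhgef1, Gnai2, Klf2, Foxo1 and Cd69 whatever their values, and the 3 genes most alike to each called receptor. Cxcl11, Rgs3, Rassf5, Ptk2b and Rapgef1 were named outside this rule. Where a list gene has several probes, the one with the highest mean signal stands for it. Alternatives were quantile and median scaling, normexp with an offset of 50, no or a stricter filter, the authors' table, 1 probe per gene, no removal of outlier spots, a trend or robust prior, no fold threshold, a replicate block, a 2-group fit with and without the line as a random block, the compared lines alone, and each array left out. S1pr4 and Gpr183 were not tested. Some genes that the naming rule selects are not reported here.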

Additional observations from a re-analysis of the deposited data

Results flagged for a closer look

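Each receptor was screened for an array far from the other 3 of its side, by the gap to the nearest array over the range of the side. The cut was Dixon's 95% critical value for 4 samples, and 5 of 20 sides passed it. That value assumes 4 independent samples of 1 population, whereas each side holds 2 lines and the sides share the same arrays. No chance rate is therefore set beside the count. All 5 were control sides, and control and IgE sides alike hold 2 lines each. Untransfected replicate 1 was low for Cxcr4 (0.69, the others at 1.94 to 2.19) and for S1pr2 (1.55, the others at 2.29 to 2.37). Untransfected replicate 2 was high for Ccr7 (1.29, the others at -2.16 to -1.81). IgM replicate 1 was high for Ccr6 (-3.82, the others at -5.78 to -5.49) and for Cxcr3 (-5.64, the others at -6.32 to -6.22), where no control reading was well above background. Gpr132 differed between IgM and untransfected cells (-5.03, adjusted p = 0.00328), which the IgE clones were set against together.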

How the results depend on the processing

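Cxcr5 (-4.27 to -2.90) and S1pr1 (-2.56 to -1.79) were called lower in the IgE lines under all 22 alternatives run. Gpr132 was called in 20 (-3.45 to -2.44) and lost in the 2-group fits with and without a random block for the line (adjusted p = 0.142 and 0.136). Cxcr3 was called in 19 of 21 and Ccr6 in 13 of 21. Neither has a value under the stricter filter. Called receptors between IgE and control lines numbered 5 as reported and 3 with normexp, the stricter filter, the authors' table or the line as a random block, and 4 to 5 without 1 array. Without a filter on dim probes, counts were 2 for clone 18 and 1 for clone 41 against untransfected cells, and 0 for either clone against IgM cells, at 4, 3, 3 and 2 as reported. With the authors' table they were 1, 1, 1 and 0. Clone 41 against untransfected cells gave 1 with the stricter filter, and clone 41 against IgM cells gave 1 with median scaling, the robust prior or the replicate block. IgM against untransfected cells gave 0 when compared alone. Without 1 array, counts ran from 1 to 5 for clone 18 and 1 to 5 for clone 41 against untransfected cells, 0 to 3 for each clone against IgM cells, and 1 to 3 for IgM against untransfected cells, where Cxcr5 and Ccr7 joined Gpr132 without untransfected replicate 1. Counts fell to 0 against IgM cells without IgM replicate 2, for clone 18 also without its replicate 1, and for clone 41 without either of its own arrays. Where a line is left with 1 array, it is assumed to vary like the others. Between IgE and control lines the sign turned for Ccr7 (0.37 as reported, -0.49 to 1.24 without 1 array) below 0 without untransfected replicate 1 and Cxcr4 (-0.30 as reported, -0.67 to 0.07) above 0 without untransfected replicate 2. Among contrasts not called, signs also turned without 1 array, as for Gpr132 in clone 18 (-1.20 to 0.23) and clone 41 (-1.38 to 0.05) against IgM cells, and for Cxcr5 (-1.10 to 1.64) and S1pr1 (-0.36 to 1.19) in IgM against untransfected cells. The cause of these changes was not tested, except that fewer receptors or arrays enter the stricter filter and the fits without an array. The deviations of replicates 1 and 2 were correlated unevenly between lines (-0.07 to 0.35), so a shared part of the replicate numbers remains possible. The replicate block left the count between IgE and control lines at 5. With that block, clone 41 gave 2 against untransfected cells (3 as reported) and 1 against IgM cells (2 as reported). Of the values for single receptors between IgE and control lines or in a pairing where they were called, 353 kept direction and side of the threshold, 86 lost the call, 1 gained it and 2 changed sign (those of Ccr7 and Cxcr4). Signal over background limits Cxcr3, Ccr6, Gpr183 and S1pr4.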
